A study of Homo sapiens with 8 samples.

Results

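The genes described here are 10 core regulators of the cell cycle: the D-type cyclins CCND1, CCND2 and CCND3, the later cyclins CCNE1, CCNA2 and CCNB1, the cyclin-dependent kinases CDK1 and CDK6, and the kinase inhibitors CDKN1A (p21) and CDKN1B (p27). They were taken by name and are 10 of 29838 loci and of 20096 named genes in a combined long-read assembly. Their reads fell on 29 of the 96614 transcripts with counts.

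The data were full-length RNA reads from a PacBio Sequel II, a long-read sequencer with which 1 read can span a whole transcript. There were 8 libraries from H1, a human embryonic stem cell line, so every group rests on a single line. The hPSC group (n = 2) held undifferentiated H1 cells kept in mTeSR1 on Matrigel. The other groups (n = 2 each) were H1 cells collected after 5 days of differentiation. Ectoderm cells received 2 µM of each of the inhibitors A83-01, PNU-74654 and Dorsomorphin with 15% KOSR, a serum replacement. Endoderm cells received 100 ng/ml Activin A with 0.5% FBS, and WNT3A at a dose not given here. Mesoderm cells received 100 ng/ml VEGF, 100 ng/ml BMP4 and 10 ng/ml bFGF with 0.5% FBS, and 100 ng/ml Activin A on the opening day alone. The comparisons ask how the cell-cycle genes differ between a pluripotent line and early cells of each germ layer.

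Cyclins are regulatory subunits that appear in turn through the cell cycle and switch on their kinases. Cyclin D with CDK4 or CDK6 and then cyclin E with CDK2 phosphorylate the retinoblastoma protein and release E2F factors, which turn on S-phase genes; cyclin A acts through S phase, and cyclin B with CDK1 drives mitosis. CDKN1A and CDKN1B bind these complexes and block them, and CDKN1A is a classic target of p53. Pluripotent stem cells are known for a short G1 phase and for low levels of CDK inhibitors.

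Library totals ran from 503840 to 1180888 reads, with both ectoderm libraries the deepest. Reads of ectoderm fell on longer transcripts: ectoderm averaged 4406 and 4650 nt of counted transcript for each read, mesoderm 3765 and 3840 nt, and the other groups 2975 to 3298 nt. The repeats of hPSC were less alike than those of the other groups (r = 0.873 across genes, against 0.946 to 0.967), where genes are not independent replicates. Endoderm markers rose in endoderm for 6 of 6 tested, and ectoderm markers rose in ectoderm for 4 of 5 tested, while SOX1 had no read in any library. Of the same 5 ectoderm markers 2 also rose in endoderm, where OTX2 had 241 and 238 reads. Pluripotency markers fell for 5 of 8 in ectoderm, 4 of 8 in endoderm and 7 of 8 in mesoderm, and their summed level stayed at 2460 to 2700 in endoderm against 3609 to 4198 in hPSC (CPM, counts scaled to a common library size). The summed level of the ectoderm markers was 647 and 485 in ectoderm and 546 and 573 in endoderm, against 72.8 and 164 in hPSC. Of 5 tested mesoderm markers, 4 rose and 0 fell in endoderm, where MIXL1 had 14 and 23 reads. In mesoderm 3 of the 5 rose and 1 fell. There KDR had 1 and 1 reads, against 57 and 44 in hPSC, TBXT had 1 and 0 and MIXL1 had 0 and 0. In the same libraries 11 of 11 tested amnion and trophoblast markers rose, and their summed level was 10025 and 10909, against 635 and 782 in hPSC, 140 and 189 in ectoderm and 3467 and 4169 in endoderm. KRT18, a keratin of many epithelia, made up 3361 and 4089 of the endoderm sum, and without it endoderm stood at 106 and 79.9 and hPSC at 78.3 and 33.7. In mesoderm KRT18 and GABRP led, and the other 10 markers of the list summed to 2360 and 2559. Of the neural crest markers, 0 of 3 tested rose in ectoderm and in endoderm and 1 of 3 in mesoderm. The part that other cell types play in the results below was not tested, and in bulk RNA fewer cells of a type and less RNA per cell cannot be told apart.

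The set of genes that passed the test against hPSC differed between the 3 layers, with CCNB1 lower in all of them. In ectoderm CCND1, CCND2 and CDK1 rose while CCNE1 and CCNB1 fell; in endoderm CDKN1A rose about 9.22-fold while CCND1, CCND2, CCNE1, CCNA2 and CCNB1 fell; in mesoderm CDK1 and CDK6 rose while CCNB1 and CDKN1A fell. Of the 9 genes with enough reads to test, 5 passed the test in ectoderm against hPSC (3 higher, 2 lower), where 48.7% of all 10843 genes tested passed, 23.8% higher and 24.8% lower (edgeR's quasi-likelihood test, Benjamini-Hochberg adjusted p under 0.05 over all genes). In endoderm 6 of 9 passed (1 higher, 5 lower), against 27.2% of all genes, 13.4% higher and 13.8% lower. In mesoderm 4 of 9 passed (2 higher, 2 lower), against 35.1% of all genes, 16.9% higher and 18.2% lower, but 1 passed without mesoderm repeat 1 and 0 without mesoderm repeat 2. Over the 9 genes the log2 fold changes had medians of 0.27, -1.32 and -0.39 in ectoderm, endoderm and mesoderm, beside -0.01, -0.13 and 0.01 for all genes. All 3 comparisons share the same hPSC libraries. Each call was run again under 16 alternatives: another tool, scaling or filter, a choice of counted transcripts, a correction for transcript length, or 1 library left out. Nothing in the labels says that the repeats were separate cultures, so the p-values measure only the spread between these libraries.

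Levels are given as CPM, counts scaled to a common library size, where the library total was first adjusted by TMM (trimmed mean of M values). They compare libraries, not genes of different length. Relative to plain library totals, this scaling moved the median log2 fold change of all genes from 0.39 to -0.01 in ectoderm, from -0.46 to -0.13 in endoderm and from 0.24 to 0.01 in mesoderm. Scaled by library totals, 4 of the 9 genes were higher in ectoderm than in hPSC and 0 lower, in place of 3 and 2.

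**Figure D1:**
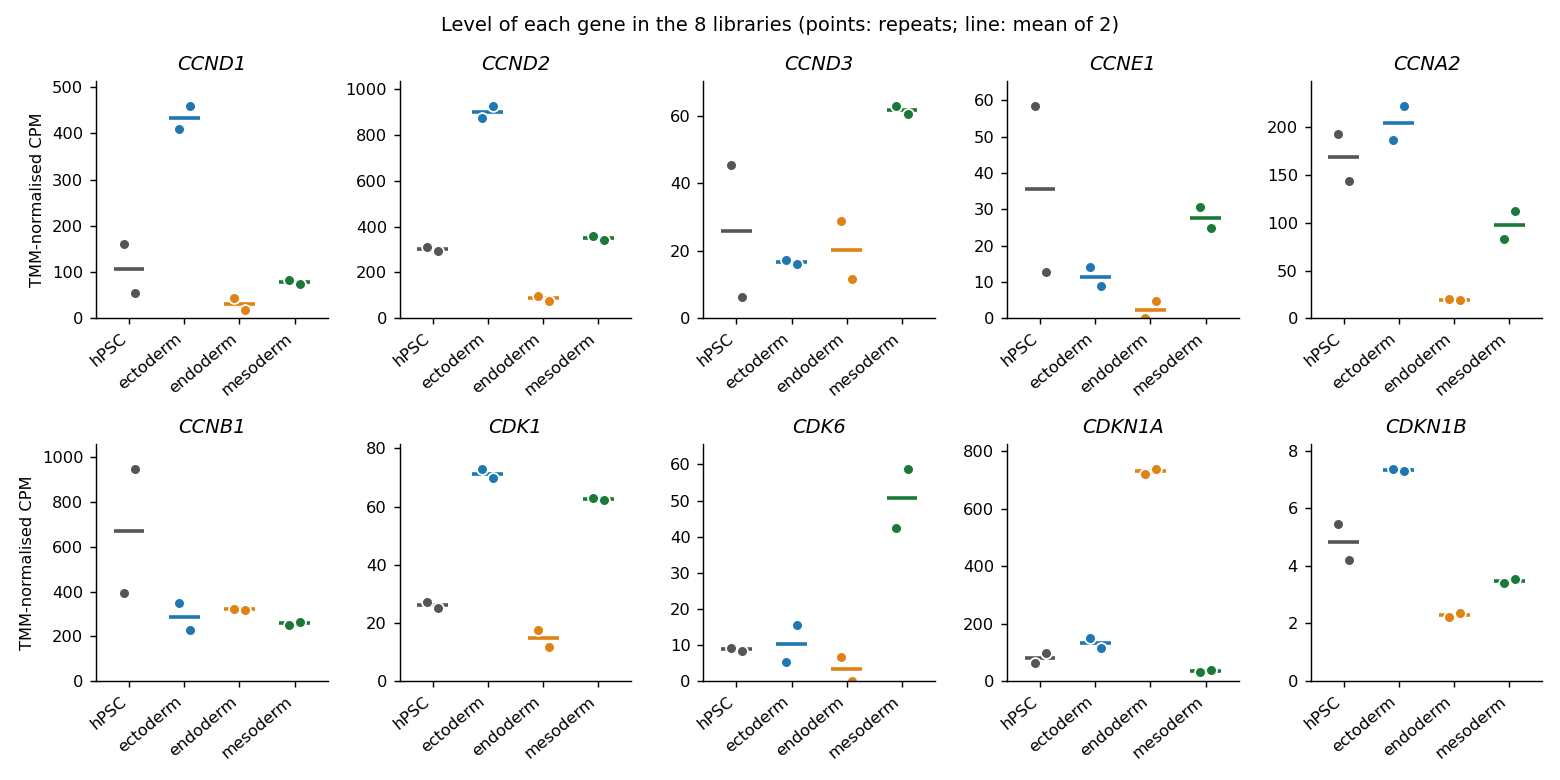
TMM-normalised CPM (vertical axis, linear, from 0 in each panel) of the 10 genes in the 8 libraries, with a point for each repeat and a line at the mean of 2, by group. Both endoderm points of CDKN1A lie at 723 and 738, above every other library, and both ectoderm points of CCND1 and CCND2 lie above all other libraries, while the hPSC points of CCND3, CCNE1 and CCNB1 are far apart.

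CCND1 encodes cyclin D1, which responds to growth factor and WNT signals and starts the passage through G1. Its locus (ENSG00000110092.4, chromosome 11, 69641156 to 69654474, plus strand, GRCh38) gave 1 transcript, of 5 exons. CCND1 stood at 160 and 54.8 CPM in hPSC, while ectoderm had 411 and 458, endoderm 44.2 and 18.8 and mesoderm 83.2 and 74.7. Both ectoderm libraries lay above all others and both endoderm libraries below all others, while mesoderm lay between the hPSC repeats, which differed 2.92-fold. The rise of CCND1 in ectoderm was 2.00 ± 0.41 (log2 fold change ± SE, adjusted p = 0.0011). It fell in endoderm by 1.77 ± 0.50 (adjusted p = 0.015), a call that was lost without hPSC repeat 1 (-0.78, adjusted p = 0.214) or without endoderm repeat 2 (-1.23, adjusted p = 0.228). In mesoderm the difference was -0.46 ± 0.43 (adjusted p = 0.436), and it was 0.51 without hPSC repeat 1 and -1.03, which passed, without hPSC repeat 2 (adjusted p = 0.0124).

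CCND2 encodes cyclin D2, the D-type cyclin of many progenitor cells. Its locus (ENSG00000118971.9, chromosome 12, 4270103 to 4305353, plus strand) gave 3238 reads. CCND2 stood at 313 and 293 CPM in hPSC, while ectoderm had 875 and 923, endoderm 97.2 and 77.5 and mesoderm 360 and 340. The repeats of every group lay close together and no groups overlapped. CCND2 rose in ectoderm by 1.57 ± 0.28 (log2, adjusted p = 0.000441) and fell in endoderm by 1.79 ± 0.31 (adjusted p = 0.000602). Mesoderm differed from hPSC by 0.21 ± 0.28 (adjusted p = 0.603). Transcripts of CCND2 are 6493 to 6532 nt long, and with the trend over transcript length removed the ectoderm rise was 0.74 and still passed (adjusted p = 0.0372). Between layers, CCND1 and CCND2 were 13.6-fold and 10.3-fold higher in ectoderm than in endoderm by the fit.

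CCND3, cyclin D3, was sparse, with 163 reads in all. CCND3 stood at 45.5 and 6.33 CPM in hPSC, while ectoderm had 17.4 and 16.2, endoderm 28.7 and 11.7 and mesoderm 62.8 and 60.5. Both mesoderm libraries lay above all others, while the hPSC repeats differed 7.2-fold (25 and 3 reads) and enclosed both other layers. No layer passed the test against hPSC (ectoderm -0.67 ± 0.56, adjusted p = 0.333; endoderm -0.39 ± 0.64, adjusted p = 0.699; mesoderm 1.19 ± 0.52, adjusted p = 0.0878). The mesoderm difference passed with no filter on low counts (1.19, adjusted p = 0.0328), with a replicate block (1.31, adjusted p = 0.0487) and with the length trend removed (1.46, adjusted p = 0.0457), and was 0.43 without hPSC repeat 2 (adjusted p = 0.434). Without hPSC repeat 1 the differences were 1.37, 1.67 and 3.24, and the last of these passed (adjusted p = 3.0e-05), while without hPSC repeat 2 the ectoderm difference was -1.36 and passed (adjusted p = 0.00886). Between layers CCND3 was lower in ectoderm than in mesoderm by 1.86 ± 0.48 (adjusted p = 0.00748). This call was lost under 5 of 16 alternatives: with the length trend removed and without any 1 of the 4 libraries. With 1 library left out the difference ran from -1.87 to -1.72.

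Reads of CCND3 also came from distant start sites. Of its 4 transcripts, the main one starts at 41941808 on the minus strand of chromosome 6 (locus ENSG00000112576.13, 41934933 to 42050357). Starts 107077 and 108549 nt upstream use other first exons and lack the 198 coding bases of the main first exon, which are 66 codons from the start codon (capitals), at chr6:41941452-41941649 on the minus strand of GRCh38, from GENCODE 29. They are shown because this stretch is what separates the forms.

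CCND3 coding bases of exon 1: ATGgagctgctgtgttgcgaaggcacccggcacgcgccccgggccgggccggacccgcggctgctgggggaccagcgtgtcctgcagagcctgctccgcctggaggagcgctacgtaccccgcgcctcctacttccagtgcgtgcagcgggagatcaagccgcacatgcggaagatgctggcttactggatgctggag

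The nearer upstream start took 3 of 28 CCND3 reads in hPSC, 5 of 46 in ectoderm, 1 of 18 in endoderm and 11 of 71 in mesoderm (15.5%, 95% exact binomial interval 8 to 26%). The interval of each group reached into those of the others, which does not decide whether the use of this start differed. Intervals and limits of this kind cover counting error only.

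CCNE1 encodes cyclin E1, which with CDK2 starts S phase. Its locus (ENSG00000105173.14, chromosome 19, 29811991 to 29824312, plus strand) gave 104 reads. CCNE1 stood at 58.3 and 12.7 CPM in hPSC, while ectoderm had 14.0 and 8.93, endoderm 0 and 4.70 and mesoderm 30.6 and 24.9. Endoderm lay below all other libraries, and hPSC repeat 2 lay between the ectoderm repeats. In endoderm there were 0 and 2 reads, so that the hPSC level was 16.3-fold higher (95% interval from counting 4.21 to 139), and the fall passed the test (adjusted p = 0.00722) but not without hPSC repeat 1 (adjusted p = 0.114) or without endoderm repeat 1 (adjusted p = 0.122). CCNE1 also fell by 1.63 ± 0.55 in ectoderm (log2, adjusted p = 0.0224), which was lost under 11 of 16 alternatives, and without hPSC repeat 1 the difference was -0.13 (adjusted p = 0.897). Mesoderm differed from hPSC by -0.39 ± 0.55 (adjusted p = 0.61), and by 1.11 without hPSC repeat 1.

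Of the 104 CCNE1 reads, 45 lay on 3 assembled transcripts with no reference identifier. The most counted of them, with 29 reads, lacks exon 2 (chr19:29812532-29812578, 47 nt), which holds the annotated start codon. Another, with 12 reads, lacks exon 9 (chr19:29821996-29822130), which is 45 whole codons in frame. Their coding bases are shown because each is what these cells' transcripts leave out (GENCODE 29 sequence, plus strand, GRCh38; capitals mark the start codon).

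CCNE1 coding bases of exon 2, chr19:29812556-29812578: ATGccgagggagcgcagggagcg
CCNE1 exon 9, chr19:29821996-29822130: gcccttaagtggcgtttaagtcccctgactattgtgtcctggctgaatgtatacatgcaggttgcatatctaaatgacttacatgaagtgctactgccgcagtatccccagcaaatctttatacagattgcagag

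The form without exon 2 took 8 of 38 reads in hPSC (21.1%, interval 9.55 to 37.3%), 9 of 32 in ectoderm (28.1%, 13.7 to 46.7%) and 11 of 32 in mesoderm (34.4%, 18.6 to 53.2%). It was thus present in all 3 groups with more than 2 CCNE1 reads, and the intervals overlapped. The form without exon 9 took 4 of 38, 4 of 32 and 4 of 32 reads in the same groups.

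CCNA2 encodes cyclin A2, which acts in S phase and early mitosis. Its locus (ENSG00000145386.11, chromosome 4, 121816444 to 121823883, minus strand) gave 1 transcript, of 8 exons. CCNA2 stood at 193 and 143 CPM in hPSC, while ectoderm had 187 and 222, endoderm 19.9 and 18.8 and mesoderm 83.2 and 112. Both endoderm libraries lay far below all others (9 and 8 reads), ectoderm overlapped hPSC, and mesoderm lay between. CCNA2 fell in endoderm by 3.11 ± 0.39 on the log2 scale (adjusted p = 3.67e-05), under all 16 alternatives. Ectoderm differed from hPSC by 0.27 ± 0.30 (adjusted p = 0.462). Mesoderm differed by -0.79 ± 0.31 (adjusted p = 0.0622), and passed without hPSC repeat 2 (-0.99, adjusted p = 0.00824).

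The promoter of CCNA2 is a textbook cell-cycle promoter, with a CRE site bound by ATF and CREB proteins and a CCAAT box bound by NF-Y. The 120 bases from 170 to 51 bases before the RefSeq start, which is also the start of the assembled transcript, are shown because the fall of CCNA2 in endoderm held under every alternative run (GRCh38.p14, chr4:121823934-121824053, minus strand; capitals mark TTGAA, the CRE letters TGACGTCA directly after it, and ATTGG, the CCAAT letters on the other strand).

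CCNA2 promoter: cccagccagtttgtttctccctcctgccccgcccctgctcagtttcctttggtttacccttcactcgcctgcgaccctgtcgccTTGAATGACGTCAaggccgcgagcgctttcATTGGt

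RefSeq windows of 300 bases were matched for 8 of the 10 genes. On both strands of the whole window CCNA2 held TGACGTCA 1 time, CCAAT 1 time and TTGAA 3 times. Only 1 of its 3 TTGAA matches lies in the stretch shown. Which of them, if any, is a working site was not tested. CCNB1 held CCAAT 2 times, and the CDK1 window at the assembled start held CCAAT 2 times and TTGAA 3 times. CDKN1B held CCAAT 3 times and CCND3 1 time in 2 of its 3 windows, while CCNE1, CDK6 and CDKN1A held none of the 3 motifs. Of 35116 promoter windows of this length, 34.6% held CCAAT, 33.7% held TTGAA and 1.85% held TGACGTCA.

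CCNB1 encodes cyclin B1, the mitotic partner of CDK1, and was the only tested gene of the 9 that passed in the same direction in all 3 layers. Its locus is ENSG00000134057.15 (chromosome 5, 69167129 to 69178245, plus strand), and 2041 of its 2042 reads lay on 1 transcript. CCNB1 stood at 393 and 947 CPM in hPSC, while ectoderm had 347 and 227, endoderm 323 and 317 and mesoderm 251 and 265. Both hPSC libraries lay above all others, but hPSC repeat 1 was close to the layers and hPSC repeat 2 was 2.41-fold above it. CCNB1 fell by 1.22 ± 0.37 in ectoderm (log2, adjusted p = 0.0129), 1.06 ± 0.38 in endoderm (adjusted p = 0.0459) and 1.37 ± 0.38 in mesoderm (adjusted p = 0.0106). Without hPSC repeat 2 none of the 3 passed: the differences were -0.39, -0.30 and -0.62 (adjusted p = 0.244, 0.44 and 0.084). The ectoderm fall was also lost without ectoderm repeat 2 (-0.76, adjusted p = 0.209), with the length trend removed (-0.38, adjusted p = 0.385) and with library totals (-0.74, adjusted p = 0.0722), and the mesoderm fall without mesoderm repeat 1 or 2 (adjusted p = 0.1 and 0.087). The endoderm fall was lost under 11 of 16 alternatives. No pair of layers passed the test for CCNB1 (adjusted p = 0.733, 0.78 and 0.52).

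CDK1, the kinase of mitosis, rose in 2 of the layers where its partner CCNB1 fell. Its locus (ENSG00000170312.17, chromosome 10, 60778478 to 60794852, plus strand) gave 307 reads. CDK1 stood at 27.3 and 25.3 CPM in hPSC, while ectoderm had 72.9 and 69.8, endoderm 17.7 and 11.7 and mesoderm 62.8 and 62.2. Ectoderm and mesoderm lay above hPSC and endoderm below it, with no overlap between any groups. CDK1 rose in ectoderm by 1.43 ± 0.34 (log2, adjusted p = 0.00272), under all 16 alternatives. It rose in mesoderm by 1.24 ± 0.36 (adjusted p = 0.0137), and this was lost with DESeq2 (adjusted p = 0.0876) and without mesoderm repeat 1 or 2 (adjusted p = 0.0567 and 0.057). Endoderm differed from hPSC by -0.83 ± 0.46 (adjusted p = 0.201) and lay below ectoderm by 2.26 ± 0.39 (adjusted p = 0.000127). Ectoderm and mesoderm differed by 0.19 ± 0.29 (adjusted p = 0.647).

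An assembled form of CDK1 with no reference identifier keeps the fourth intron whole (chr10:60785788-60788059, 2272 nt) and runs over 4161 nt, against 1889 nt for the spliced form. It took 6 of 27 reads in hPSC (22.2%, interval 8.62 to 42.3%), 44 of 195 in ectoderm (22.6%, 16.9 to 29.1%), 1 of 13 in endoderm and 6 of 72 in mesoderm (8.33%, 3.12 to 17.3%). The share in each repeat was 21.1% and 24.4% in ectoderm and 8.11% and 8.57% in mesoderm, while the hPSC repeats stood at 33.3% and 8.33% of 15 and 12 reads. Against hPSC the test of transcript choice did not pass in mesoderm for the intron form (-1.41 on the log2 scale relative to the rest of the gene, unadjusted p = 0.106, adjusted p = 0.776). The difference between ectoderm and mesoderm was not tested.

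CDK6, the partner of the D-type cyclins, was sparse, with 97 reads on the longest transcripts of the 10 genes (11612 to 11834 nt for the full-length forms). Its locus is ENSG00000105810.10 (chromosome 7, 92604921 to 92836573, minus strand). CDK6 stood at 9.10 and 8.43 CPM in hPSC, while ectoderm had 5.35 and 15.4, endoderm 6.63 and 0 and mesoderm 42.4 and 58.7. Both mesoderm libraries, with 25 and 33 reads, lay above all others, which held 0 to 19 reads. CDK6 rose in mesoderm by 2.50 ± 0.59 (log2, adjusted p = 0.00439), and the difference was 2.32 without mesoderm repeat 2 (adjusted p = 0.0574). It was also lower in ectoderm than in mesoderm by 2.31 ± 0.48 (adjusted p = 0.00156), lost without ectoderm repeat 1 (adjusted p = 0.0628) or mesoderm repeat 2 (adjusted p = 0.0541). Ectoderm did not pass against hPSC (0.19 ± 0.70, adjusted p = 0.845), and the difference was -0.92 with the length trend removed and -0.54 without ectoderm repeat 2. In endoderm, with 3 and 0 reads, the hPSC level was 2.57-fold higher (interval 0.642 to 14.8, adjusted p = 0.389).

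Full-length CDK6 forms came from 3 start sites. The form from the first, at 92836573, took 22 of 58 CDK6 reads in mesoderm (37.9%, interval 25.5 to 51.6%). It took 8 of 27 in ectoderm (29.6%, 13.8 to 50.2%) and 0 of 9 in hPSC (interval 0 to 33.6%). A form from the third start, at 92833917, keeps the intron after its first exon and held 5 of 9 reads in hPSC against 11 of 58 in mesoderm. With 9 reads in hPSC the intervals overlapped, which does not decide whether the use of these starts differed. All the full-length forms hold the same 978 coding bases.

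CDKN1A was the only gene of the 9 that rose in endoderm. Its product p21 halts the cycle by binding CDK2 complexes and the replication clamp PCNA. Its locus is ENSG00000124762.14 (chromosome 6, 36676460 to 36687337, plus strand). CDKN1A stood at 61.9 and 97.0 CPM in hPSC, while ectoderm had 150 and 116, endoderm 723 and 738 and mesoderm 32.3 and 37.3. Endoderm lay far above the other libraries, mesoderm below them, and no groups overlapped. CDKN1A rose in endoderm by 3.20 ± 0.33 on the log2 scale (adjusted p = 6.28e-06), under all 16 alternatives. It fell in mesoderm by 1.18 ± 0.37 (adjusted p = 0.0219), which was lost without hPSC repeat 2 (-0.84, adjusted p = 0.111), without mesoderm repeat 1 or 2 (adjusted p = 0.148 and 0.0938) and with the length trend removed (-0.91, adjusted p = 0.0536). In ectoderm the difference was 0.75 ± 0.32 (adjusted p = 0.0655), and it passed under 12 of 16 alternatives, with library totals (1.19, adjusted p = 0.00367) and with the length trend removed (1.52, adjusted p = 0.00129) among them. CDKN1A was 20.9-fold higher in endoderm than in mesoderm by the fit (adjusted p = 4.03e-07).

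CDKN1A used 2 start regions that lie 2237 nt apart, and all 3 of its spliced forms hold the same 492 coding bases. The spliced form from the upstream start took 7 of 80 reads in hPSC (8.75%, interval 3.59 to 17.2%) and 67 of 367 in ectoderm (18.3%, 14.4 to 22.6%). In endoderm it took 70 of 641 (10.9%, 8.61 to 13.6%) and in mesoderm 0 of 40 (interval 0 to 8.81%). A form of 1 exon from the same start added 3 reads in ectoderm and 2 in endoderm. The share of the spliced upstream form by repeat was 18.3% and 18.2% in ectoderm, while endoderm had 8.87% and 13.1% and hPSC 2.94% and 13.0%. The main form took most reads in every library, from 70.1% in ectoderm repeat 1 to 95.2% in mesoderm repeat 2. It had 516 of 641 reads in endoderm, where CDKN1A rose, and 68 of 80 in hPSC. In mesoderm the test of choice gave an unadjusted p of 0.0193 for the upstream form and an adjusted p of 0.34, and in ectoderm 0.0739 and 0.681.

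CDKN1B, the p27 inhibitor that holds resting cells in G1, had too few reads to test. Its locus (ENSG00000111276.12, chromosome 12, 12717368 to 12722369, plus strand) gave 31 reads, of which hPSC had 3 and 2, ectoderm 11 and 9, endoderm 1 and 1, and mesoderm 2 and 2. CDKN1B stood at 5.46 and 4.22 CPM in hPSC, while ectoderm had 7.36 and 7.30, endoderm 2.21 and 2.35 and mesoderm 3.40 and 3.56. Ectoderm was 1.5-fold above hPSC (95% interval from counting 0.547 to 5.12), and hPSC was 2.14-fold above endoderm (0.351 to 22.5). Both intervals include equal levels, so no difference was detectable at this depth. A form with another last exon took 5 of the 31 reads.

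**Figure D2:**
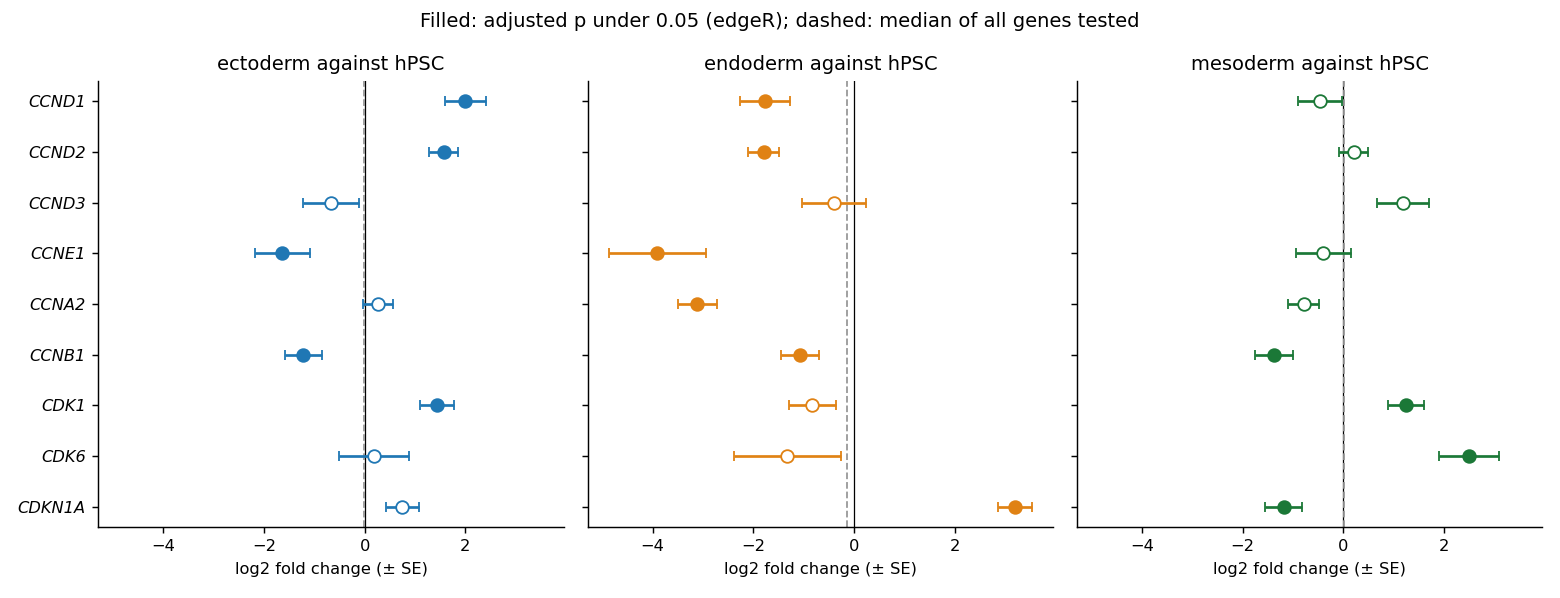
Log2 fold change against hPSC (horizontal axis) of the 9 genes tested in ectoderm, endoderm and mesoderm, with bars of 1 SE from edgeR's quasi-likelihood fit; filled points have an adjusted p under 0.05 and the dashed line is the median of all 10843 genes. CCNB1 lies left of 0 in all 3 panels, while CDKN1A lies at 0.75, 3.20 and -1.18 and CCND1 at 2.00, -1.77 and -0.46.

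Between the layers, 5 of the 9 genes passed in ectoderm against endoderm (4 higher, 1 lower), where 63% of all genes passed, 33.1% higher and 29.9% lower. CCND1, CCND2, CCNA2 and CDK1 were higher in ectoderm and CDKN1A was lower. In ectoderm against mesoderm 6 passed (4 higher, 2 lower), where 35.5% of all genes passed, 18.1% higher and 17.3% lower. CCND1, CCND2, CCNA2 and CDKN1A were higher in ectoderm, and CCND3 and CDK6 were lower. CCNA2 was higher by 1.06 ± 0.31 (adjusted p = 0.0137), a call lost without ectoderm repeat 2 or mesoderm repeat 1 (adjusted p = 0.0838 and 0.142). In endoderm against mesoderm 8 passed (1 higher, 7 lower), where 47.1% of all genes passed, 23.2% higher and 23.9% lower. The last of these counts fell to 5 without endoderm repeat 1 or without mesoderm repeat 1. Endoderm was lower than mesoderm for 7 of the 9 genes, all except CCNB1 and CDKN1A, and higher for CDKN1A. The widest of these with more than 3 reads in each group were CCNA2 (-2.32 ± 0.40, adjusted p = 0.00029), CDK1 (-2.07 ± 0.41, adjusted p = 0.000797) and CCND2 (-2.00 ± 0.31, adjusted p = 0.000124). The CCND1 and CCND3 calls in this comparison (-1.31 ± 0.50 and -1.59 ± 0.57) were each lost without any 1 of several libraries, with the smallest differences without endoderm repeat 2 (-0.81 and -1.07, adjusted p = 0.354 and 0.279). CCNE1 was 12.2-fold lower in endoderm than in mesoderm (interval from counting 3.11 to 105, adjusted p = 0.00981), lost without endoderm repeat 1 or mesoderm repeat 1 (adjusted p = 0.126 and 0.0657), and CDK6 was 14.7-fold lower (4.80 to 73.6, adjusted p = 0.000804).

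From the highest group mean to the lowest, neighbours were often not separated by the test. The order for CCND1 and CCNA2 was ectoderm, hPSC, mesoderm and endoderm: in CCND1 the pair hPSC and mesoderm did not pass, and in CCNA2 the only neighbours that passed were mesoderm and endoderm. The order for CCND2 and CDK1 was ectoderm, mesoderm, hPSC and endoderm: in CCND2 mesoderm and hPSC did not pass, and in CDK1 only mesoderm and hPSC passed. CDKN1A ran from endoderm through ectoderm and hPSC to mesoderm, and ectoderm and hPSC did not pass. CDK6 ran from mesoderm through ectoderm and hPSC to endoderm, and only mesoderm and ectoderm passed. CCNB1 was highest in hPSC, followed by endoderm, ectoderm and mesoderm, and only hPSC and endoderm passed. No neighbours passed in CCND3 (mesoderm, hPSC, endoderm, ectoderm) or CCNE1 (hPSC, mesoderm, ectoderm, endoderm).

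With a minimum count of 10, transcript choice could be tested for 8 transcripts of 3 genes, CCND2, CDK1 and CDKN1A. No transcript passed in any layer (0 of 8 each, edgeR's diffSpliceDGE), where 1.35%, 1.13% and 1.53% of 6981 transcripts passed in ectoderm, endoderm and mesoderm. An unadjusted p under 0.05 was reached by 1 of them in ectoderm and 1 in mesoderm, against 0 in endoderm. With a minimum count of 5, 14 transcripts of 6 of the genes were tested and 0 passed in each layer. The ectoderm form with an unadjusted p under 0.05 was a CCND2 form with an extra exon of 42 nt (chr12:4285275-4285316) in the intron after exon 3 of the main form. It took 31 of 311 reads in hPSC (9.97%, interval 6.87 to 13.8%), 132 of 2447 in ectoderm (5.39%, 4.53 to 6.36%), 11 of 77 in endoderm (14.3%, 7.35 to 24.1%) and 31 of 403 in mesoderm (7.69%, 5.29 to 10.7%). Its difference in ectoderm was -0.87 on the log2 scale relative to the rest of the gene (unadjusted p = 0.0383, adjusted p = 0.515). Another CCND2 form starts 3659 nt upstream and took 5.89% to 11.5% of reads in 7 libraries and 3.03% in endoderm repeat 2, where it had 1 read.

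**Figure D3:**
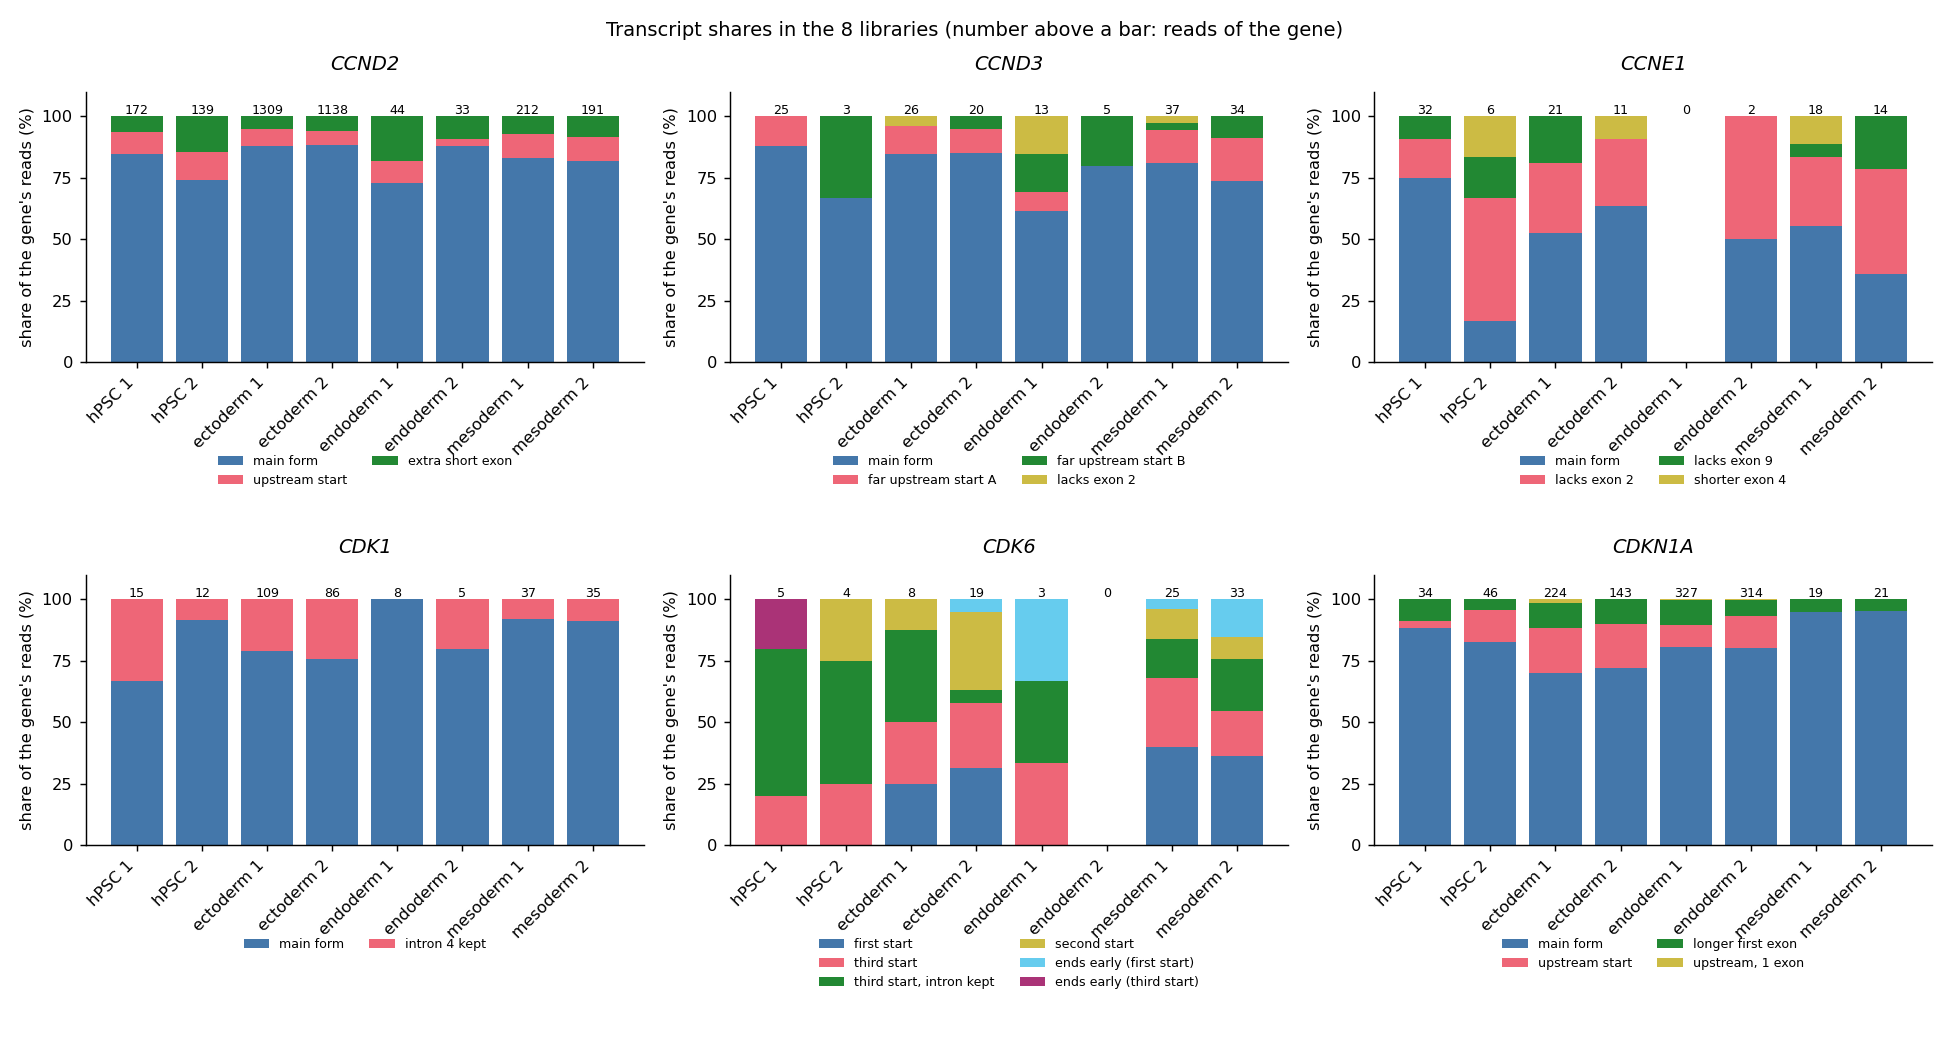
Share of each gene's reads (vertical axis, percent) on its assembled transcripts in each of the 8 libraries for 6 of the genes with more than 1 transcript, with the number of reads above each bar. The main form of CCND2 holds from 72.7% to 88.3% in every library, whereas bars with few reads, such as CCND3 in hPSC repeat 2 with 3 reads, vary widely.

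The genes whose pattern over the 8 libraries was nearest to each member were found among 10842 others by the root mean square difference of log2 levels after each gene was centred. Nearest to CDK1 were SPIN1 (0.10) and DIAPH2 (0.13), and nearest to CCND2 was FANCI (0.17), a DNA repair gene. Nearest to CCNB1 were TCP1 and SUMO3 (both 0.19), and nearest to CCND1 were WASF3 (0.24) and MN1 (0.25). CCNA2 was nearest to SEMA6A (0.24) and FASTKD1 (0.25), and CCND3 to NDN (0.21) and KIAA2013 (0.24). The sparse CCNE1 and CDK6 had farther neighbours, MACROD1 (0.30) and SIPA1 (0.47) for the former and STARD13 (0.41) and DOCK9 (0.43) for the latter. CDKN1A was nearest to B4GALNT3 (0.31) and COCH (0.36), and its own spread over the libraries was 1.59. COCH stood at 212 and 249 in endoderm, 38.2 and 25.3 in hPSC and 10.2 and 8.89 in mesoderm.

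The partners of these genes were taken from 7 lists, whose counts are to be read beside the shares of all genes that passed: 23.8% higher and 24.8% lower in ectoderm, 13.4% and 13.8% in endoderm, 16.9% and 18.2% in mesoderm. Many of the counts moved when 1 library was left out; these values are given for the larger counts that moved most, and for some of the smaller ones. Of 9 other cyclins and CDKs tested, 2 rose and 2 fell in ectoderm, 0 and 0 passed in endoderm, and 1 rose and 3 fell in mesoderm; the median log2 fold changes were 0.62, -0.09 and -0.66. The 3 falls in mesoderm were 0 without mesoderm repeat 1 or 2. CDK4, the other partner of the D-type cyclins, fell in ectoderm by 1.62 ± 0.32 (log2, adjusted p = 0.00077) and in mesoderm by 0.92 ± 0.32 (adjusted p = 0.0358), neither of which passed with the length trend removed (adjusted p = 0.0972 and 0.169). The mesoderm fall of CDK4 was lost under 12 of 16 alternatives. CCNG2, a cyclin of cells leaving the cycle, had 3 and 0 reads in hPSC, 113 and 126 in ectoderm and 108 and 133 in mesoderm, and endoderm had 1 and 4. It rose 29.9-fold in ectoderm (interval from counting 10.1 to 146, adjusted p = 3.38e-05) and 71.4-fold in mesoderm (24.1 to 349, adjusted p = 2.06e-06).

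Of the 3 other CDK inhibitors tested, 0 passed in ectoderm, 1 rose and 1 fell in endoderm, and 2 rose in mesoderm. CDKN1C (p57) had 0 and 2 reads in hPSC against 8 and 7 in endoderm, a rise of 8.74-fold (2.03 to 78.8, adjusted p = 0.0408), which was lost under 6 of 16 alternatives: DESeq2, library totals, and without hPSC repeat 1, endoderm repeat 1 or 2 or mesoderm repeat 1 (adjusted p from 0.0505 to 0.146). With 26 and 11 reads, mesoderm was 16.4-fold higher (4.24 to 141, adjusted p = 0.00297), lost without mesoderm repeat 1 (adjusted p = 0.0581). CDKN2B (p15) had no read in hPSC and 18 and 14 in mesoderm, at least 9.48-fold higher against a floor of 3 reads in the group (adjusted p = 0.000613). CDKN1A fell in the layer where CDKN1C and CDKN2B rose. CDKN3, a phosphatase of CDK2, had 13 and 5 reads in hPSC and none in endoderm, at least 5.15-fold lower (adjusted p = 0.00333).

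Of 15 genes of RB and E2F proteins and their complex tested, 4 rose and 1 fell in ectoderm, 1 rose and 3 fell in endoderm, and 3 rose and 1 fell in mesoderm, with medians of 0.29, -0.50 and 0.42. With reference-matching transcripts alone, 7 of 13 rose in ectoderm and the median was 1.67, and in mesoderm 1 rose with DESeq2 or without mesoderm repeat 1 or 2. In endoderm 0 rose without hPSC repeat 1 or endoderm repeat 1 or 2. RBL2 (p130), the RB relative of resting cells, rose in ectoderm by 2.85 ± 0.45 (adjusted p = 0.000147) and in mesoderm by 2.38 ± 0.47 (adjusted p = 0.00122), beside CDK1, which rose in the same layers. Of 17 CDK phosphatases, kinases and ubiquitin ligase subunits, 2 rose and 3 fell in ectoderm, 1 rose and 7 fell in endoderm, and 3 rose and 4 fell in mesoderm, with medians of -0.17, -0.60 and -0.28. The endoderm falls were 2 without endoderm repeat 2, and the mesoderm counts were 0 and 0 without mesoderm repeat 2. The mesoderm rises were also 0 with DESeq2 and without mesoderm repeat 1. FBXO5, an inhibitor of the ligase that destroys cyclins A and B, fell in endoderm by 2.23 ± 0.48 (adjusted p = 0.00281). CCNA2 fell by 3.11 in the same layer. Both values are RNA levels, and a link between them was not tested. WEE1, the kinase that inhibits CDK1, rose in mesoderm by 1.26 ± 0.37 (adjusted p = 0.0145), a call lost with DESeq2 and without hPSC repeat 2 or mesoderm repeat 1 or 2 (adjusted p from 0.0627 to 0.0873).

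Many DNA replication genes are E2F targets. Of 20 tested, 3 rose and 8 fell in ectoderm, 0 rose and 9 fell in endoderm, and 1 rose and 7 fell in mesoderm, with medians of -0.65, -0.93 and -0.71; the ectoderm counts were 3 and 4 with the length trend removed and 3 and 3 with library totals. The 8 falls in ectoderm were 1 without ectoderm repeat 2, the 9 in endoderm 2 without endoderm repeat 2, and the 7 in mesoderm 2 without mesoderm repeat 2 and 12 without hPSC repeat 1. MCM7 of the replicative helicase fell by 1.43 ± 0.32 in ectoderm (adjusted p = 0.00201; 0.0527 without ectoderm repeat 2) and by 1.54 ± 0.33 in mesoderm (adjusted p = 0.00202). Of 20 mitosis genes tested, 10 rose and 4 fell in ectoderm, 0 rose and 6 fell in endoderm, and 3 rose and 7 fell in mesoderm, with medians of 0.95, -0.96 and -0.29. The falls in endoderm ran from 3 without endoderm repeat 1 to 11 without hPSC repeat 1, and those in mesoderm from 2 without mesoderm repeat 2 to 10 without hPSC repeat 1. TOP2A, topoisomerase II, rose in ectoderm by 3.57 ± 0.32 (adjusted p = 7.89e-07), and AURKB, the kinase of chromosome alignment, fell there by 2.02 ± 0.33 (adjusted p = 0.000197), or by 0.85 with the length trend removed (adjusted p = 0.0383). BUB1B, a spindle checkpoint gene, fell in endoderm by 3.66 ± 0.41 (adjusted p = 1.24e-05). With the length trend removed the ectoderm counts of the mitosis list were 10 and 2, and with library totals 13 and 2.

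Beside CDKN1A, 18 genes of the p53 pathway were tested: 5 rose and 6 fell in ectoderm, 3 rose and 0 fell in endoderm, and 1 rose and 6 fell in mesoderm, with medians of -0.40, 0.55 and -0.47. In endoderm 15 of 18 did not pass, and the rises were 1 without endoderm repeat 1 and 7 without hPSC repeat 1. There BTG2, an antiproliferative gene, rose by 4.93 ± 0.42 (adjusted p = 1.3e-06) and TP53INP1 by 2.18 ± 0.47 (adjusted p = 0.00277; 0.0627 without endoderm repeat 1). In mesoderm DDB2 and FDXR fell by 3.12 ± 0.40 (adjusted p = 3.12e-05) and 3.10 ± 0.39 (adjusted p = 2.3e-05).

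**Figure D4:**
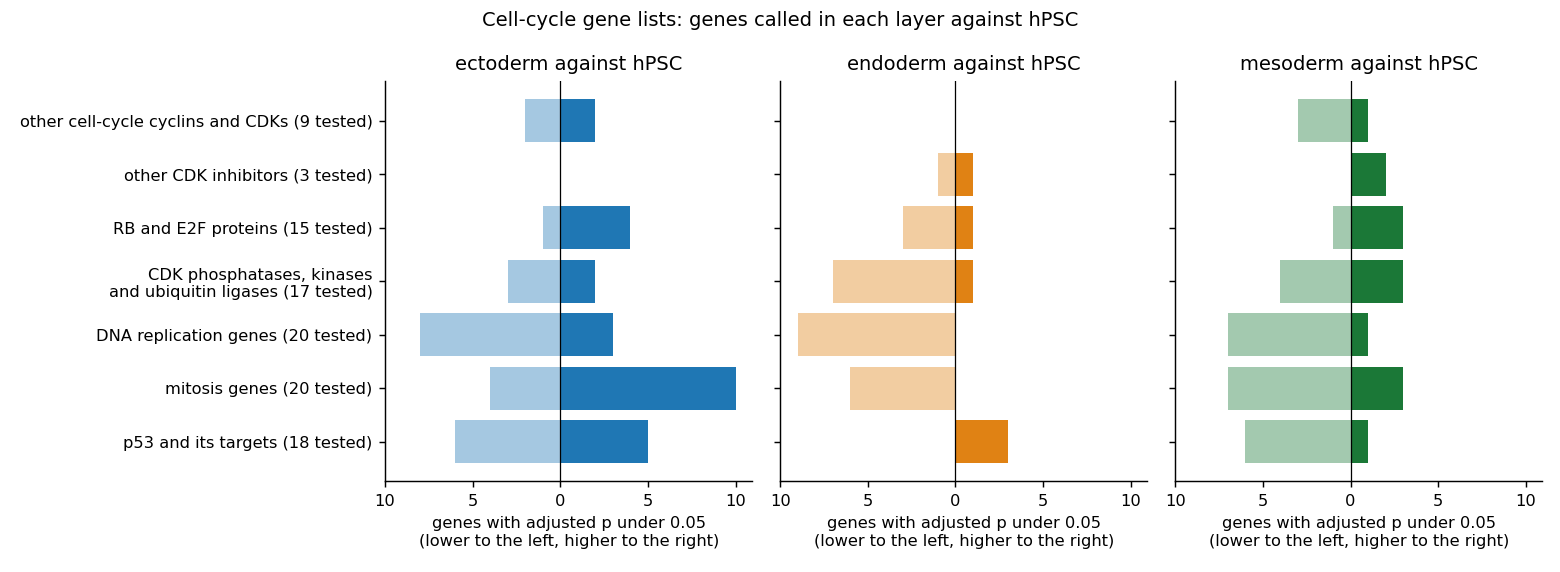
Number of genes with an adjusted p under 0.05 in each of the 7 lists, higher (dark, to the right) and lower (pale, to the left), in ectoderm, endoderm and mesoderm against hPSC. In endoderm the replication and mitosis lists have 9 and 6 genes lower and 0 higher, while in ectoderm 10 mitosis genes are higher and 4 lower.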

How the data were processed

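Groups follow the layer named in each library's title. The authors deposited raw read counts for each assembled transcript in 8 libraries. The endoderm columns among them carry the unit expected counts here, deposited by the authors as whole raw numbers, so no rounding was done. The authors' deposited CPM table served only to check the counts. The submitters' processing notes name minimap2, StringTie and GRCh38; versions, annotation release, counter and strand use are not given in the sources used here, so reads shared with overlapping genes may be split in ways not known. Tables of single-group assemblies were not used.

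Transcript counts were summed per gene. Genes were tested with edgeR 4.0.16 (R 4.3.3; TMM, filterByExpr with min.count 10, quasi-likelihood test, Benjamini-Hochberg over all genes) with all 8 libraries in 1 fit, and transcript choice with diffSpliceDGE. Sparse groups got exact conditional binomial intervals (scipy 1.17.1), and shares got Clopper-Pearson intervals, at 95%. Each SE was derived from the quasi-likelihood test, as the absolute log2 fold change over the square root of its F statistic. Counts of 0 entered the fits and levels unchanged. Where a whole group had 0 reads, a floor of 3 reads was used for the bound on its fold. On simulated data with 200 genes changed 4-fold, the gene test recovered 78% in ectoderm (9326 genes tested), 70.5% in endoderm (9356) and 69.5% in mesoderm (9373), and false calls were 10.9%, 4.73% and 8.55% of calls. That simulation gave every other gene 1 mean over the 8 libraries. In the data 27.2% to 48.7% of genes passed against hPSC, so these rates may not hold there. Promoters came from RefSeq (GRCh38.p14) and exon sequences from GENCODE 29.

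Named were all members, at most the 2 largest rises and falls of each list and layer, the 2 nearest patterns (1 of them is not reported here), and transcripts with at least 10% of a gene's reads in a group and 10 reads in all. Of the genes allowed by the rule for lists, a part is printed, chosen after their values were seen. The members and lists were chosen with earlier results of these data known. Alternatives were DESeq2 1.42.0, RLE size factors, no filter, a replicate block, sums by listed gene, reference-matching transcripts alone, removal of a length trend, each library left out, min.count 5 for transcript choice and, added after seeing the data, library totals.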

Additional observations from a re-analysis of the deposited data

How the results depend on the processing

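All 34 differences of a member called between groups kept their direction under the 16 alternatives, and 19 of them stayed past the threshold under all. The genes called fell with DESeq2 to 3354 in ectoderm, 1831 in endoderm and 2315 in mesoderm against hPSC and to 2010 in ectoderm against mesoderm, from 5280, 2952, 3805 and 3848; the cause was not tested. With 1 library left out, which leaves fewer samples, the genes called ranged from 3299 to 5932, from 1458 to 4074 and from 2020 to 5084 against hPSC, from 1784 to 5637 in ectoderm against mesoderm and from 3388 to 6481 in endoderm against mesoderm, and the members called from 0 to 5 in mesoderm against hPSC and from 5 to 8 in endoderm against mesoderm. The lowest of these counts were without ectoderm repeat 2, endoderm repeat 2, mesoderm repeat 2, mesoderm repeat 1 and endoderm repeat 2 in turn. With library totals the share of higher among called genes moved from 49.0% to 66.5% in ectoderm, from 49.3% to 31.7% in endoderm and from 48.0% to 59.1% in mesoderm against hPSC, from 52.5% to 71.7% and from 51.1% to 62.3% in ectoderm against endoderm and mesoderm, and from 49.3% to 28.1% in endoderm against mesoderm.

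Differences that had not passed turned sign as follows (log2), the cause not tested. CCND3 in ectoderm against hPSC was 0.13 with the length trend removed and ran from -1.36 without hPSC repeat 2 to 1.37 without hPSC repeat 1. In endoderm it ran from -1.14 to 1.67 without the same libraries and was 0.16 without endoderm repeat 2. In ectoderm against endoderm it was 0.56 with the length trend removed and 0.47 with library totals, and ran from -0.72 without endoderm repeat 2 to 0.57 without endoderm repeat 1. CDK6 in ectoderm was -0.92 with the length trend removed and ran from -0.54 without ectoderm repeat 2 to 0.93 without ectoderm repeat 1. In mesoderm CCND2 was -0.20 with the length trend removed, and CCND1 and CCNE1 ran from -1.03 and -1.07 without hPSC repeat 2 to 0.51 and 1.11 without hPSC repeat 1. CCNB1 in ectoderm against endoderm was 0.0031 with no filter, 0.013 with reference-matching transcripts, 0.69 with the length trend removed, 0.61 with library totals, and ran from -0.42 without ectoderm repeat 1 to 0.21 without ectoderm repeat 2. In ectoderm against mesoderm it ran from -0.11 to 0.53 without the same libraries, and in endoderm against mesoderm it was -0.0021 with the length trend removed and -0.26 with library totals.

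The labels do not say whether libraries with the same repeat number were handled together. Deviations of same-numbered libraries correlated by -0.03 to 0.15 across genes, which does not decide it. With a replicate block the genes called were 5105, 2798 and 3613 in ectoderm, endoderm and mesoderm against hPSC and the members called 5, 5 and 5. Between layers they were 6729, 3641 and 4969 genes and 5, 6 and 8 members. No transcript of a member passed for choice under any alternative. Depth limits CCND3, CCNE1, CDK6 and CDKN1B, with 163, 104, 97 and 31 reads in all.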
